A study of Mus musculus with 12 samples.

Results

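The genes described here are 8 genes of cholesterol synthesis, taken by symbol from the 23420 genes of the count table. Hmgcs1, Idi1, Fdps, Fdft1, Sqle, Lss and Cyp51 encode enzymes of the pathway, and Srebf2 encodes the transcription factor that controls it. No gene of the set is itself a cholesterol uptake gene, so uptake genes are given separately. RNA was sequenced from a pair of brown fat depots, interscapular (iBAT) and supraclavicular (scBAT), and from a pair of white fat depots, inguinal (iWAT) and epididymal (eWAT). The donors were male C57BL/6 mice, 8 weeks old, kept at ambient temperature and given no treatment, and this holds for all 4 groups. Each depot has 3 libraries, 12 in all, made from total RNA with a TruSeq protocol. The labels do not say whether the 3 libraries came from separate animals or pools, so p-values measure only the spread between these libraries.

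Cholesterol is built from acetyl-CoA. Acetyl units are joined to HMG-CoA and reduced to mevalonate, mevalonate is turned into isoprenoid units, and these are assembled through farnesyl diphosphate into squalene. Squalene is oxidised, folded into the first sterol, lanosterol, and trimmed to cholesterol. The factor SREBP-2, the product of Srebf2, is held in the endoplasmic reticulum by Insig proteins when sterols are plentiful and is cut free to enter the nucleus when they are scarce. In fat, much of the cell's free cholesterol sits at the surface of the lipid droplet, and adipocytes both take up and make sterol.

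Total counts ran from 17159401 to 29262554 per library, and all 8 genes were among the 14898 genes tested. Levels are CPM, counts scaled to library size, here with TMM factors, which correct for differences in RNA composition. The depot labels were checked against marker genes. The summed level of 10 brown adipocyte markers was 5128 to 6542 CPM in the brown depots and 148 to 567 CPM in the white depots, and the mean of Ucp1 was 2174 and 1969 CPM in the brown depots (iBAT, scBAT), and 22.1 and 45.6 CPM in the white ones (iWAT, eWAT). The iWAT libraries 1 and 3 stood apart. Their summed level of 8 B cell markers was 1620.0 and 2225 CPM, against 92.4 CPM in iWAT 2 and 5.39 to 42.2 CPM in the other 9 libraries. T cell markers summed to 1011 and 1548 CPM in the same libraries, against 65.9 CPM in iWAT 2 and 9.64 to 17.4 CPM elsewhere. The sum of 8 white adipocyte markers was 1729 to 7383 CPM in white and 443 to 948 CPM in brown libraries. In iWAT 1, 2 and 3 it was 3662, 6668 and 1729 CPM, against 6655 to 7383 CPM in eWAT. In the same order of iWAT libraries, 10 pan-adipocyte markers summed to 12145, 19823 and 7961 CPM. For 8 proliferation markers the sums were 194, 54.4 and 263 CPM. In bulk tissue, fewer cells of a type and less RNA per cell cannot be told apart. The brown minus white values of the 8 genes, and those of some other genes, are also given without the iWAT libraries 1 and 3. That leaves 1 iWAT library, whose spread is assumed to be like that of the other depots. Genes for which no such value is given may have moved as well.

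**Figure D1:**
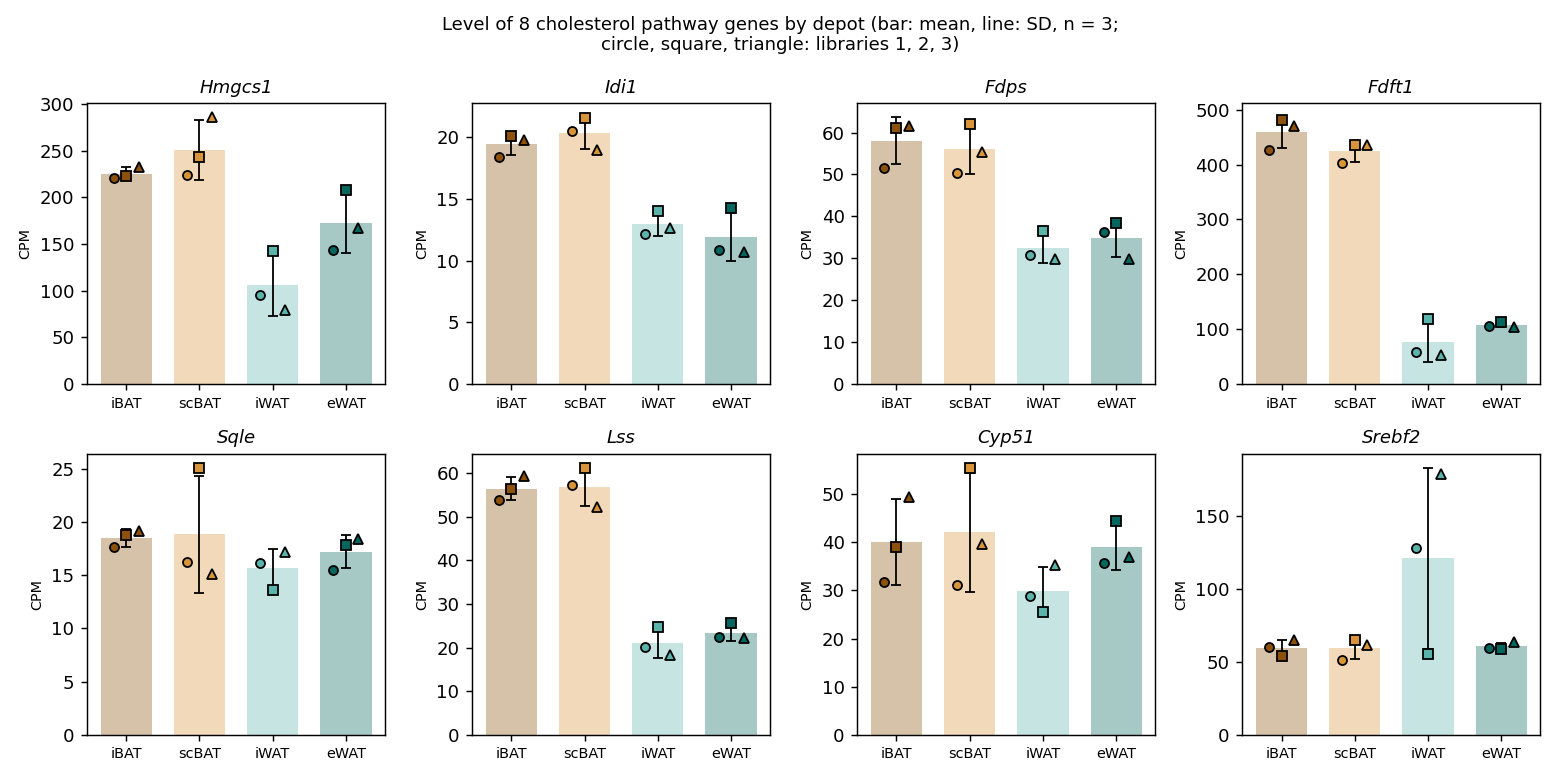
Level in CPM (vertical axis, from 0) of the 8 genes in each depot; bars are means, lines SD of 3 libraries, and circles, squares and triangles are libraries 1, 2 and 3. Fdft1 stood at 402 to 480.5 CPM in the 6 brown libraries and at 52.8 to 119 CPM in the 6 white ones, while Srebf2 was high only in the iWAT libraries 1 and 3, at 128 and 179 CPM.

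In brown minus white, in which the brown depots are averaged and set against the average of the white ones, 5 of the 8 genes were higher in brown fat and 0 were lower (edgeR quasi-likelihood test, Benjamini-Hochberg adjusted p under 0.05 over all tested genes). At an unadjusted edgeR p under 0.05, 5 were higher and 1, Srebf2, was lower, and no share over all genes is given for that threshold. At an adjusted p under 0.05, DESeq2 called 1 gene lower, Srebf2, while limma-voom called 0. Without the iWAT libraries 1 and 3, the log2 differences were 1.98 for Fdft1, 1.25 for Lss, 0.61 for Hmgcs1 and 0.69 for Fdps. They were 0.63 for Idi1, 0.30 for Sqle, 0.39 for Cyp51 and 0.05 for Srebf2. At the adjusted threshold and with all libraries, 31.3% of all tested genes were higher and 38.1% lower in brown fat, 69.4% in either direction. Being called was thus common in this contrast. The genes called higher were Fdft1, Lss, Hmgcs1, Fdps and Idi1. Sqle, Cyp51 and Srebf2 were not called. The median log2 difference of the 8 genes was 0.72, against -0.11 over all tested genes, and the summed level of the 8 genes was 852 to 977 CPM in brown libraries and 391 to 521 CPM in white ones. Markers of neighbouring tissues moved with this contrast: 10 of 10 skeletal muscle markers were higher in brown fat, with sums of 352 to 5272 CPM in brown and 50.6 to 194 CPM in white libraries. Of 6 tested salivary gland markers 5 were higher. Salivary sums overlapped, at 490 to 942 CPM in iBAT, 2055 to 9825 in scBAT, 173 to 566 in iWAT and 416 to 2175 in eWAT. In iBAT minus eWAT, 0 salivary markers were higher and 1 was lower. The part of muscle and salivary tissue in the results was not tested.

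Hmgcs1 encodes the cytosolic HMG-CoA synthase, which adds the third acetyl unit. Its level was 220.5, 223 and 233 CPM in iBAT, 224, 243 and 286 CPM in scBAT, 95.8, 143 and 78.8 CPM in iWAT, and 143, 208 and 167 CPM in eWAT. Every brown library lay above every white one, with eWAT between iWAT and the brown depots. The brown minus white log2 difference was 0.81 (SE 0.15, adjusted p = 0.000607 in edgeR), a 1.76-fold difference. Taken pair by pair, Hmgcs1 was called against iWAT (1.09 for iBAT and 1.25 for scBAT on the log2 scale) but not against eWAT (0.38, adjusted p = 0.146, and 0.54, adjusted p = 0.0516, both edgeR). Both eWAT comparisons passed the threshold when the iWAT libraries 1 and 3 were left out of the shared fit, at log2 differences of 0.41 and 0.56 with edgeR adjusted p of 0.0146 and 0.00266.

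Idi1 and Fdps work on the isoprenoid units. Idi1, the isopentenyl diphosphate isomerase, was at 18.4, 20.1 and 19.8 CPM in iBAT, 20.5, 21.6 and 18.97 CPM in scBAT, 12.2, 14.0 and 12.7 CPM in iWAT, and 10.9, 14.2 and 10.7 CPM in eWAT. The brown libraries lay within a narrow band above all the white ones, with a log2 difference of 0.68 (SE 0.10, edgeR adjusted p = 9.62e-05). Fdps, the farnesyl diphosphate synthase, whose product also feeds ubiquinone, dolichol and protein prenylation, was at 51.5, 61.1 and 61.6 CPM in iBAT and 50.4, 62.1 and 55.4 CPM in scBAT. Its white levels were 30.9, 36.4 and 29.8 CPM in iWAT and 36.4, 38.3 and 29.8 CPM in eWAT, again without overlap. The difference was 0.76 (SE 0.09, edgeR adjusted p = 3.80e-05), a 1.70-fold difference, close to the 1.60-fold of Idi1.

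Fdft1, the squalene synthase, carries out the first step that is committed to sterols, and it had the largest difference of the 8 genes. Its level was 427, 480.5 and 469.6 CPM in iBAT and 402, 435 and 436 CPM in scBAT, against 58.5, 119 and 52.8 CPM in iWAT and 106, 113 and 104 CPM in eWAT. The lowest brown library was far above the highest white one. The brown minus white difference was 2.28 on the log2 scale (SE 0.18, edgeR adjusted p = 1.73e-06), a 4.85-fold difference. It was 2.58 and 2.47 for iBAT and scBAT against iWAT, and 2.09 and 1.98 against eWAT, so that it was called in all 4 brown to white pairs. Without the iWAT libraries 1 and 3, the values against iWAT were 1.96 and 1.84. Within iWAT, library 2 was at the level of eWAT and libraries 1 and 3 were lower. Without those libraries, the brown minus white difference was 1.98 (edgeR adjusted p = 2.28e-09).

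Sqle and Lss act next. Sqle, the squalene epoxidase, a rate-controlling step of the pathway, was at 17.6, 18.7 and 19.2 CPM in iBAT, 16.3, 25.1 and 15.1 CPM in scBAT, 16.1, 13.6 and 17.2 CPM in iWAT, and 15.5, 17.8 and 18.4 CPM in eWAT. The depots overlapped, apart from iBAT and iWAT, and the brown minus white difference was 0.19 (SE 0.13, edgeR adjusted p = 0.227). Lss, the lanosterol synthase, which closes the rings, was at 53.8, 56.3 and 59.2 CPM in iBAT and 57.2, 61.1 and 52.3 CPM in scBAT. In white fat Lss was at 20.1, 24.6 and 18.2 CPM in iWAT and 22.4, 25.7 and 22.1 CPM in eWAT. All brown libraries were above all white ones, by 1.36 on the log2 scale (SE 0.09, edgeR adjusted p = 3.92e-07), a 2.56-fold difference. Sqle, whose step lies between those of Fdft1 and Lss, did not pass the test that both of its neighbours passed, and the difference between these genes was not itself tested.

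Cyp51, the lanosterol demethylase, starts the trimming of lanosterol. It was at 31.7, 39.1 and 49.3 CPM in iBAT, 31.1, 55.5 and 39.6 CPM in scBAT, 28.8, 25.4 and 35.2 CPM in iWAT, and 35.6, 44.5 and 36.9 CPM in eWAT. The spread within scBAT alone covered most of the range of the other depots, and the brown minus white difference of 0.27 (SE 0.16) had an edgeR adjusted p of 0.158. For scBAT against iWAT, Cyp51 was called without scBAT 1 (0.69, edgeR adjusted p = 0.0244) or without iWAT 3 (0.64, edgeR adjusted p = 0.0465), but not with all libraries.

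Between the brown depots, no difference in the 8 genes passed the test. In scBAT minus iBAT, 0 of 8 were called in either direction by edgeR, by DESeq2 or by limma-voom. At the adjusted threshold edgeR called 0.235% of all tested genes higher and 0.0940% lower, 0.329% in all. Of the 8 genes, 0 also had an unadjusted edgeR p under 0.05, for which no share over all genes is given. The log2 differences ran from -0.11 for Fdft1 (SE 0.25) to 0.16 for Hmgcs1 (SE 0.21). These standard errors do not show that the levels were the same. Muscle and salivary markers differed among the brown libraries, with 10 muscle markers summing to 5272 CPM in scBAT 1 against 352 CPM in iBAT 1, and their part in these values was not tested.

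Against each white depot, both brown depots gave like counts. In iBAT minus iWAT, 5 of the 8 genes were higher and 1 lower, against a background of 27.9% higher and 35.2% lower, 63.0% in all. In scBAT minus iWAT the counts were again 5 and 1, against 28.1% and 33.5%, 61.6% in all. The gene that was lower in both was Srebf2. In iBAT minus eWAT, 4 genes were higher and 0 lower, where 26.2% and 27.5% of all tested genes were called, 53.7% in all. In scBAT minus eWAT, 4 were higher and 0 lower, against 26.0% and 25.8%, 51.9% in all. These shares are at the adjusted threshold. At an unadjusted edgeR p under 0.05, 4 of the 8 genes were higher and 0 lower for iBAT, and 5 and 0 for scBAT. No share over all genes is given for that threshold. The 4 genes higher than eWAT in both were Fdft1, Lss, Fdps and Idi1. DESeq2 and limma-voom also called 0 genes lower than eWAT. In scBAT minus eWAT, DESeq2 called Hmgcs1 higher as well (adjusted p = 0.0358), and limma-voom did not. These comparisons share their libraries and are not independent of each other.

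**Figure D2:**
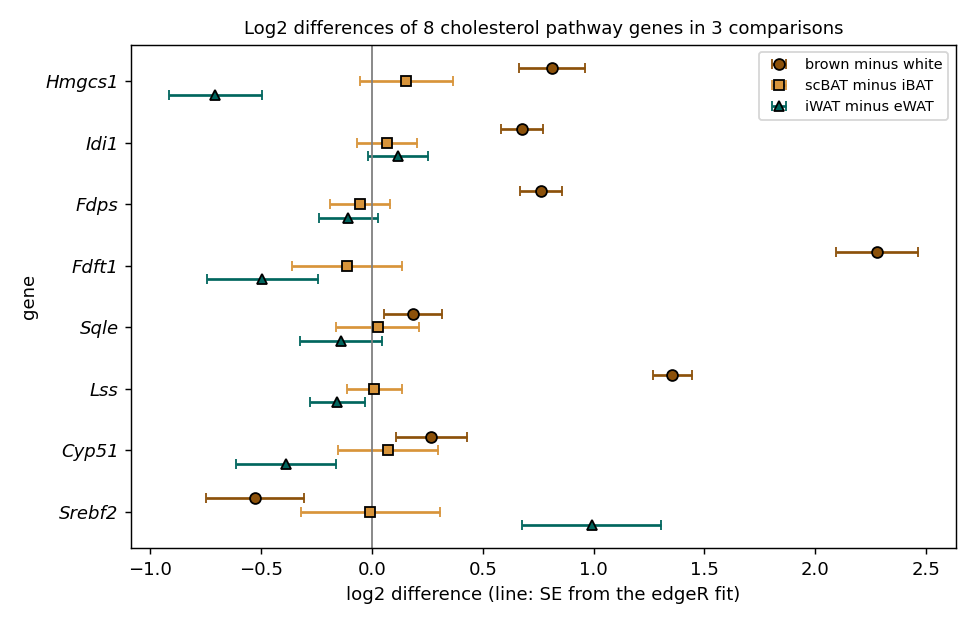
Log2 difference (horizontal axis) of each gene in brown minus white, scBAT minus iBAT and iWAT minus eWAT; lines are the SE of the edgeR fit. Fdft1 (2.28) and Lss (1.36) lie farthest to the brown side, the scBAT minus iBAT values lie around 0, and Srebf2 is at 0.99 in iWAT minus eWAT.

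Srebf2 followed another pattern from the enzymes. Its level was 60.4, 53.6 and 64.7 CPM in iBAT, 51.3, 65.2 and 61.4 CPM in scBAT, and 59.7, 59.1 and 63.5 CPM in eWAT. In iWAT it was 128, 55.2 and 179 CPM. Thus 10 libraries lay between 51.3 and 65.2 CPM, and the iWAT libraries 1 and 3, those with high B and T cell markers, lay above them. The brown minus white difference was -0.53 (SE 0.22, edgeR adjusted p = 0.0539), and leaving out iWAT 2, the iWAT library within the range of the other depots, brought it past the threshold at -0.69 (edgeR adjusted p = 3.86e-05). Without iWAT 1 and 3 it was 0.05 (edgeR adjusted p = 0.628). The brown depots were lower than iWAT by edgeR, at -1.02 for iBAT (adjusted p = 0.0162) and -1.03 for scBAT (adjusted p = 0.0160). Those calls were lost without iWAT 3 (edgeR adjusted p = 0.0659 and 0.0650), without iBAT 2 for the first (0.0587) and without scBAT 1 for the second (0.0597), and without both iWAT 1 and 3 the values turned to 0.11 and 0.10. The lymphocyte markers moved with Srebf2 in iWAT, and their part in its level was not tested.

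In iWAT minus eWAT, Srebf2 was called higher and Hmgcs1 lower, 1 gene in each direction of the 8, where 17.7% and 11.0% of all tested genes were called higher and lower, 28.7% in all. Srebf2 differed by 0.99 on the log2 scale (SE 0.31, edgeR adjusted p = 0.0399) with overlapping libraries, since iWAT 2 lay below eWAT. The call was lost when any library other than iWAT 2 was left out, with edgeR adjusted p from 0.0545 without scBAT 1 to 0.160 without iWAT 3, where the difference was 0.60. Without iWAT 1 and 3 it was -0.12 (edgeR adjusted p = 0.727). Hmgcs1 differed by -0.71 (SE 0.21, edgeR adjusted p = 0.0331), with the highest iWAT library just under the lowest eWAT one. That call was lost without iWAT 1 (0.114), iWAT 3 (0.1001), eWAT 1 (0.0553), eWAT 2 (0.108) or eWAT 3 (0.0746), all edgeR adjusted p, and without both iWAT 1 and 3 the difference was -0.25 (edgeR adjusted p = 0.528). The other 6 genes were not called, but without iWAT 2, Fdft1 and Lss were lower in iWAT than in eWAT, by -0.95 (edgeR adjusted p = 7.84e-06) and -0.28 (edgeR adjusted p = 0.0298).

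**Figure D3:**
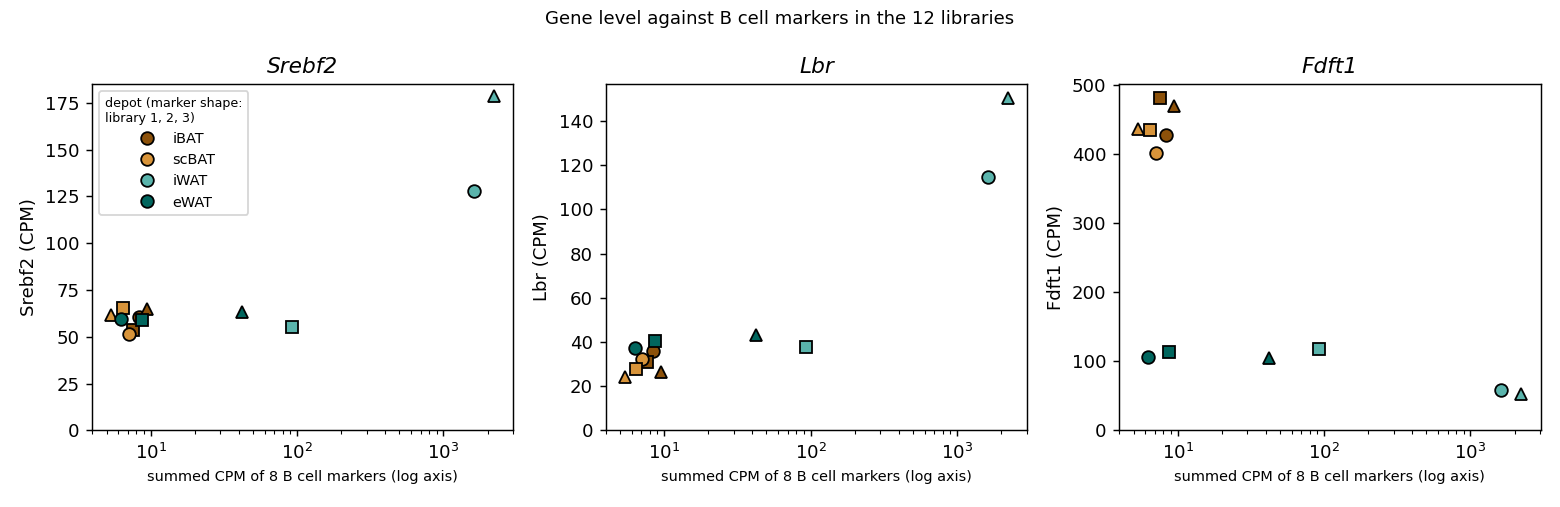
Level of Srebf2, Lbr (a sterol reductase described with the other enzymes) and Fdft1 (vertical axis, CPM) against the summed CPM of 8 B cell markers (horizontal log axis) in the 12 libraries; colour is the depot and shape the library number. The iWAT libraries 1 and 3 are far to the right, at 1620.0 and 2225 CPM, where Srebf2 and Lbr are at their highest and Fdft1 at its lowest.

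SREBP factors act through a sequence called the sterol regulatory element (SRE), and in several pathway genes it lies close to a CCAAT box, bound by the factor NF-Y. RefSeq promoter sequences of build GRCm38.p6 were at hand for Hmgcs1, Lss, Cyp51, Idi1 and Srebf2, 5 of the 8 genes. The motifs were chosen after the sequences were seen. The SRE core TCACCCCA, searched on both strands, occurred in 1.34% of 32851 promoters over the 250 bases before the start, and the looser TCACCNCA, which includes it, in 3.61%. CCAAT occurred in 33.8% and the GC box GGGCGG in 32.7%. The windows below are 60 bases of gene strand sequence, chosen because they hold the matched letters and lie outside annotated exons. Capitals mark an SRE core or a CCAAT box, the latter written ATTGG where it lies on the other strand.

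Hmgcs1, chr13:119690172-119690231, plus strand: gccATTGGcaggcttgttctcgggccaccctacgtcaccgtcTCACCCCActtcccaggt
Srebf2, chr15:82147090-82147149, plus strand: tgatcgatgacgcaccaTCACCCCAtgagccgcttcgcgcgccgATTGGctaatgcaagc
Cyp51, chr5:4104753-4104812, minus strand: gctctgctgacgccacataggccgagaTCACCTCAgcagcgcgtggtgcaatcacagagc
Lss, chr10:76531515-76531574, plus strand: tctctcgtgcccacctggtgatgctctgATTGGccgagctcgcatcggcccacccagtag

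Distances here are counted from the RefSeq starts, which differ from the GENCODE gene positions given below. TCACCCCA begins 137 bases before the start of Hmgcs1 and 162 bases before that of Srebf2. The variant TCACCTCA begins 88 bases before the start of Cyp51, and neither form was found in the 250 bases of Lss or Idi1, while CCAAT was found in all 5. Of the 3 genes with a match, Hmgcs1 was higher in brown fat and Cyp51 and Srebf2 were not called, and of the 2 without one, Lss and Idi1 were both higher. A match is a stretch of letters, and no match says only that the letters are not in this window.

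Levels can be compared between genes only per length, and this was done as CPM per kilobase of annotated exon (GENCODE annotation of GRCm38, union of all transcripts). On that scale Fdft1 stood first in the brown depots, at 108.6 in iBAT and 100.4 in scBAT, with Hmgcs1 next at 49.07 and 54.64. In the white depots Hmgcs1 stood first, at 23.05 in iWAT and 37.6 in eWAT, with Fdft1 at 18.13 and 25.54. Sqle was the lowest of the 8 in the brown depots (3.337 and 3.394), and Lss in the white ones (1.946 and 2.168), where its long union of exons, 10787 bases, lowers the value.

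The 8 genes lie on 6 chromosomes of GRCm38. On the plus strand are Hmgcs1 (chromosome 13, 119690379 to 119708260), Idi1 (chromosome 13, 8885501 to 8892451), Sqle (chromosome 15, 59315077 to 59331192), Srebf2 (chromosome 15, 82147181 to 82205379) and Lss (chromosome 10, 76531588 to 76557138). On the minus strand are Fdps (chromosome 3, 89093588 to 89101959), Cyp51 (chromosome 5, 4081145 to 4104746) and Fdft1. Some of these genes share exon bases with another gene. Fdft1 spans 63145150 to 63179578 of chromosome 14 on the minus strand, and its exons share 774 bases, 18.3% of their length, with those of Ctsb on the opposite strand. Ctsb, a lysosomal protease gene, was at means of 1844, 2138, 1315 and 1564 CPM in iBAT, scBAT, iWAT and eWAT, with a brown minus white difference of 0.47 (SE 0.16, edgeR adjusted p = 0.0207). The strand setting of the counting is not given in the sources used here, so reads of the shared bases cannot be assigned. The exons of Fdps share 26.7% of their length with Gm43738 on the same strand, and those of Hmgcs1 12.1% with the antisense gene Gm48342. Those of Idi1 share 9.2% with Gm48574, those of Cyp51 3.76% with Akap9, and those of Lss 3.53% with 4930483K19Rik. Gm43738, Gm48342 and Gm48574 are not among the genes counted here. Srebf2 holds Mir33 within its span, with no exon bases in common.

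Read against the whole pathway, 10 of 21 tested enzyme genes were higher in brown fat, 2 were lower and 9 were not called. Their median log2 difference was 0.27. Of all tested genes, 31.3% were higher and 38.1% lower, 69.4% in all, with a median of -0.11. The same background holds for the brown minus white counts that follow. From mevalonate to farnesyl diphosphate 3 of 5 were higher, from there to lanosterol 2 of 3, and from lanosterol to cholesterol 3 of 10 were higher and 1 lower. These counts include the 7 enzymes of the set. Of the 14 other enzymes tested, 5 were higher, 2 lower and 7 not called. Without the iWAT libraries 1 and 3, the median log2 difference of the 21 enzymes was 0.31, and single enzymes moved in either direction.

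**Figure D4:**
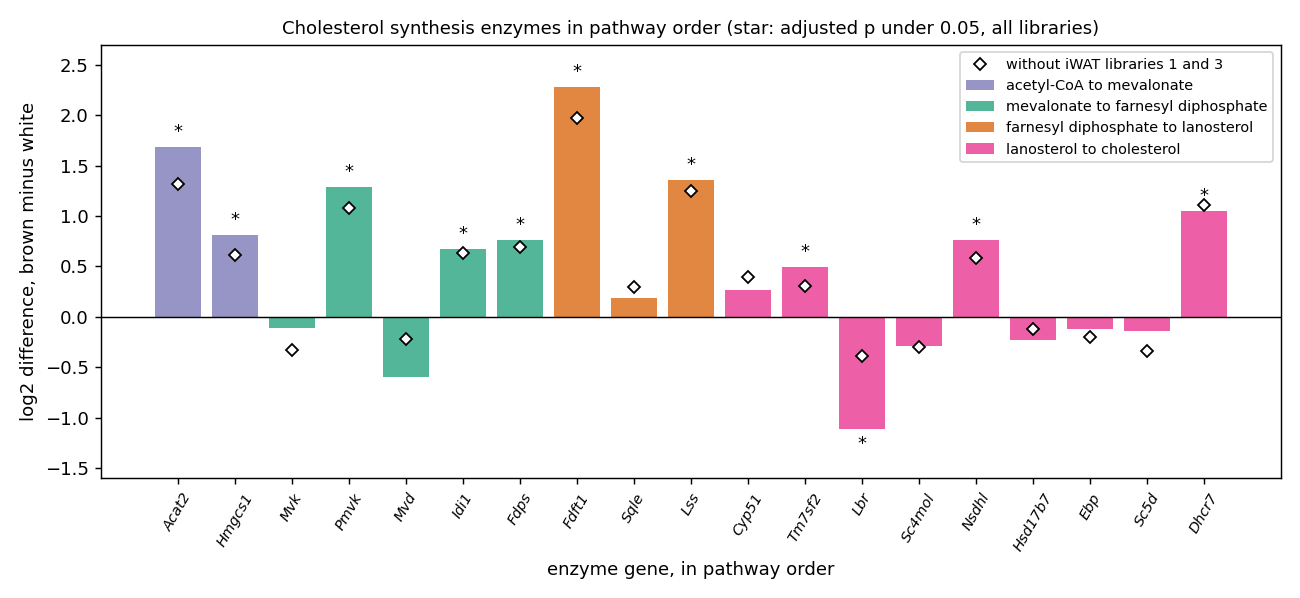
Brown minus white log2 difference (vertical axis) of enzyme genes in pathway order (horizontal axis), coloured by stage; stars mark an edgeR adjusted p under 0.05 with all libraries and diamonds give the value without iWAT libraries 1 and 3. Fdft1 (2.28) has the tallest bar, and the negative bar of Lbr (-1.11) shrinks to -0.39 at the diamond.

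Among the other enzymes, Acat2, the cytosolic thiolase of the first step, had means of 299.7 ± 34.9 CPM in iBAT and 322 ± 39.0 CPM in scBAT, but of 98.5 ± 58.1 CPM in iWAT and 95.03 ± 7.57 CPM in eWAT (SD, n = 3), a log2 difference of 1.68 (edgeR adjusted p = 7.66e-05), and of 1.32 without the iWAT libraries 1 and 3. Pmvk, the phosphomevalonate kinase, was higher by 1.29 (edgeR adjusted p = 1.38e-05), and by 1.08 without those libraries. Late in the pathway Dhcr7, the last reductase of its branch, was higher by 1.05 (edgeR adjusted p = 5.29e-07), Nsdhl, which removes a carboxyl group from the sterol, by 0.76 (0.000647) and Tm7sf2, a sterol reductase, by 0.49 (0.00937). Without the iWAT libraries 1 and 3, Tm7sf2 was at 0.31 (edgeR adjusted p = 0.0368). Mvk, Mvd, Sc4mol (the file's name for Msmo1), Hsd17b7, Ebp and Sc5d were not called with all libraries. In that order their log2 differences were -0.11, -0.60, -0.29, -0.23, -0.12 and -0.14. Without the iWAT libraries 1 and 3 they were -0.33, -0.22, -0.30, -0.12, -0.20 and -0.34.

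Lbr, a sterol reductase that is also a protein of the nuclear envelope, was at 115, 37.8 and 151 CPM in iWAT against 24.2 to 43.0 CPM elsewhere. Its difference of -1.11 (edgeR adjusted p = 0.00345) became -0.39 without the iWAT libraries 1 and 3, still past the threshold (edgeR adjusted p = 0.00853). As for Srebf2, the high libraries were the ones with high lymphocyte markers, whose part in the values was not tested.

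Of 13 tested regulators of the SREBP pathway, 7 were higher in brown fat, 4 lower and 2 not called. Of all tested genes, 31.3% were higher and 38.1% lower. The median of the regulators was 0.28, and 0.21 without the iWAT libraries 1 and 3. Insig1, which retains the SREBP complex in the endoplasmic reticulum and is itself an SREBP target, was at 379 ± 68.3 CPM in iBAT and 370.2 ± 99.7 CPM in scBAT, but at 180.4 ± 73.3 CPM in iWAT and 153 ± 16.2 CPM in eWAT (SD, n = 3). The log2 difference was 1.17 (edgeR adjusted p = 0.000486), whereas Insig2, its relative, was lower, at -0.44 (edgeR adjusted p = 0.00626). Without the iWAT libraries 1 and 3, Insig1 was at 0.94 and Insig2 at -0.63. Scap, the escort of SREBP, was higher by 0.28 (edgeR adjusted p = 0.00230). Mbtps1 and Mbtps2, of the same list, were lower, at -0.14 and -0.28 (edgeR adjusted p = 0.0385 and 0.00508). The Mbtps1 call was lost with DESeq2 size factors inside edgeR (edgeR adjusted p = 0.0740). Erlin1 and Erlin2, partners in the breakdown of endoplasmic reticulum proteins, differed in sign, at -0.69 and 0.80 (edgeR adjusted p = 5.82e-05 and 7.14e-05). Srebf1, the gene of the factor SREBP-1, was at 0.53 (edgeR adjusted p = 0.0672), at 0.81 without iWAT 2 (edgeR adjusted p = 0.000544) and at 0.20 without iWAT 1 and 3 (edgeR adjusted p = 0.257).

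Of 13 uptake and intake genes, 5 were higher, 3 lower and 5 not called, against 31.3% and 38.1% of all tested genes higher and lower. Their median was -0.05, and 0.09 without the iWAT libraries 1 and 3. Vldlr, a receptor that serves triglyceride-rich particles, was 488 ± 33.9 and 495 ± 24.5 CPM in iBAT and scBAT (SD, n = 3). In iWAT and eWAT it was 111 ± 75.3 and 142 ± 5.78 CPM. Its brown minus white difference was 1.97 (edgeR adjusted p = 6.55e-05), and 1.57 without the iWAT libraries 1 and 3. Npc1, which exports cholesterol from the lysosome, was higher by 0.98 (edgeR adjusted p = 3.69e-06), and Lipa, the lysosomal acid lipase, by 0.54 (edgeR adjusted p = 0.000123). Lrp1, a broad lipoprotein receptor, was at -0.83 (edgeR adjusted p = 0.0220), and at -1.24 without the iWAT libraries 1 and 3.

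Of 10 tested efflux and storage genes, 2 were higher, 6 lower and 2 not called, with a median of -1.07. Of all tested genes, 31.3% were higher and 38.1% lower, with a median of -0.11. Abcg1, a sterol exporter, was at -1.92 (edgeR adjusted p = 2.17e-05), Soat1, which esterifies cholesterol, at -2.15 (edgeR adjusted p = 0.000572) and Nceh1, a cholesterol ester hydrolase, at -2.03 (edgeR adjusted p = 9.13e-05). Macrophages express these genes as well, and the summed level of the macrophage markers was 126 to 273 CPM in brown and 692 to 907 CPM in white libraries. The part of those cells in the values was not tested. Osbpl1a, a sterol-binding protein gene, was higher by 1.17 (edgeR adjusted p = 0.00102). Under upper quartile scaling 1 gene of the list was higher and 7 were lower, with no share over all genes given. Without the iWAT libraries 1 and 3, Abcg1 was at -1.43, Soat1 at -1.46, Nceh1 at -1.39 and Osbpl1a at 0.80.

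Fatty acid synthesis, the other lipid pathway under SREBP control, had 10 of 12 tested genes higher and 2 lower. Of all tested genes, 31.3% were higher and 38.1% lower. The median of the 12 genes was 1.72, and 1.40 without the iWAT libraries 1 and 3. Elovl6, an elongase, was highest of these at 3.68, followed by Acly, which makes cytosolic acetyl-CoA from citrate, at 2.18 and Fasn, the fatty acid synthase, at 2.06. Acss2, which makes acetyl-CoA from acetate, was at 1.90. The lower genes were the desaturases Fads1 (-1.71) and Fads2 (-0.75, and -0.48 without the iWAT libraries 1 and 3).

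The 8 genes did not share a single profile over the 12 libraries. Each gene's log2 CPM was centred on its own mean, and likeness was taken as the root mean square distance between 2 profiles, with smaller values meaning more alike. Fdps and Idi1 were the nearest pair of the set, at 0.142, then Sqle and Cyp51 at 0.188, and Fdft1 and Srebf2 the farthest, at 1.60. Measured against the mean of the other members, Fdps was at 0.105 and Idi1 at 0.149, while Srebf2 was at 0.901 and Fdft1 at 0.968. Of 9798 other genes with a mean of at least 10 CPM, those nearest to the mean profile of the 8 were Ccdc47 (0.0769), Hmgn5 (0.0876), Hbs1l (0.0879), Slc35a4 (0.0939), Slc35b2 (0.0963), Dcaf10 (0.0984), Ssr4 (0.0993) and Commd3 (0.0997), where the median over genes was 0.506. The profiles share their libraries, and the mean profile averages over unlike genes.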

How the data were processed

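The authors deposited a table of raw counts, whole numbers under gene symbols, with no normalization. The submitters' processing notes name build mm10, STAR 2.4.2a, HTSeq 0.6.1p1, Picard 1.119, bcl2fastq 1.8.3 and edgeR. The annotation and strand setting are not given in the sources used here. All 12 libraries were fitted together in R 4.3.3 with edgeR 4.0.16 (filterByExpr, TMM, robust quasi-likelihood F test, a mean per depot), with 7 contrasts and Benjamini-Hochberg adjustment over 14898 genes at 0.05. The SE is the log2 difference divided by the square root of F. DESeq2 1.42.0, limma 3.58.1 and other scalings and filters served as alternatives, and the code was tested on simulated data. No replicates were duplicates. Named genes were the 8 members, their listed pathway genes and the 8 nearest profiles. Members, lists and tests were chosen with earlier results of these data known. Distances use log2 CPM with a prior count of 2. Sequences come from RefSeq (GRCm38.p6) and positions from GENCODE (GRCm38). Sqle, Fdft1 and Fdps promoters were not used here. Some genes of the lists are counted but not reported here by name.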

Additional observations from a re-analysis of the deposited data

How the results depend on the processing

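The 5 genes higher in brown than white fat numbered 5 under every alternative run, and in the leave-one-out fits (5 to 5). Lower genes there numbered 1 (Srebf2) with upper quartile scaling, DESeq2 or voom quality weights, and 0 to 1 with 1 library left out. The scBAT minus iBAT counts were 0 to 0 in both directions. For iWAT minus eWAT, 0 members were higher with limma-voom, voom quality weights, the replicate block, the compared depots only, or without iWAT 1 and 3, and 0 were lower with the quality weights, the compared depots only, or without iWAT 1 and 3. Leaving out 1 library gave 0 to 1 higher and 0 to 3 lower. Against iWAT, 0 were lower without iWAT 1 and 3 or with the compared depots only (both brown depots) and with limma-voom (iBAT). The leave-one-out ranges were 5 to 5 higher and 0 to 1 lower for iBAT, and 5 to 6 and 0 to 1 for scBAT. Against eWAT they were 4 to 5 higher and 0 to 0 lower for both. Called values changed sign only for Srebf2 without iWAT 1 and 3: -0.12 in iWAT minus eWAT, 0.11 in iBAT minus iWAT and 0.10 in scBAT minus iWAT, with 1 iWAT library left. In that fit the uncalled iWAT minus eWAT values of Fdft1, Lss and Fdps also changed sign, to 0.16, 0.10 and 0.08. Idi1 lost its calls against iWAT with quality weights (adjusted p = 0.0834 for iBAT, 0.0595 for scBAT).

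Over all genes, scBAT minus iBAT gave 35 higher and 14 lower genes, but 181 and 29 with DESeq2, 21 and 8 with limma-voom, 143 and 31 with quality weights, 10 and 8 with the replicate block, 250 and 37 without iWAT 1 and 3, and 127 and 27 with the compared depots only. For iWAT minus eWAT, 2631 and 1646 became 1301 and 809 with quality weights, 480 and 412 without iWAT 1 and 3, and 48 and 162 with the compared depots only, while DESeq2 gave 2492 lower and limma-voom 1479 higher. For scBAT minus iWAT, 4192 higher became 2789 with quality weights. The median of all genes in brown minus white was -0.11 with TMM, -0.17 with upper quartile scaling and -0.09 with DESeq2 factors. Whether the replicate numbers pair the libraries is not known. Deviations of same-numbered libraries correlated at -0.21 to 0.34, over 0.1 in 7 of 18 pairs. Of 12 libraries, 0 correlated best with their own number throughout. With 3 libraries per depot, these values cannot decide whether same-numbered libraries share an animal. With the block, the Srebf2 call in iWAT minus eWAT was lost (adjusted p = 0.0581) and Hmgcs1 in scBAT minus eWAT was gained (0.0395). Causes were not tested. Each depot had 3 libraries, which limits the precision for small differences such as those of Sqle and Cyp51.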

Other observations

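Farnesyl diphosphate, the product of Fdps, also leads to branches other than sterols. Of 10 tested genes of those branches 6 were higher in brown fat, 2 lower and 2 not called. Over all tested genes, 31.3% were higher and 38.1% lower. The median of the 10 genes was 0.36, and 0.35 without the iWAT libraries 1 and 3. Pdss1 and Pdss2, which together build the side chain of ubiquinone, the electron carrier of the respiratory chain, were higher by 1.495 and 1.46 on the log2 scale (edgeR adjusted p = 9.59e-07 and 6.68e-07). Pdss2 was at 31.3 ± 1.06 and 30.4 ± 1.39 CPM in iBAT and scBAT, but at 10.9 ± 2.46 and 11.5 ± 0.582 CPM in iWAT and eWAT (SD, n = 3). Coq2, which joins that chain to the ring, was higher by 0.76 (edgeR adjusted p = 3.85e-05), and Fnta, a subunit of protein prenyltransferases, by 0.67 (edgeR adjusted p = 0.000123). Dhdds, of the dolichol branch, was at -0.31 (edgeR adjusted p = 0.00698). Also of that branch, Nus1 was higher by 0.47 (edgeR adjusted p = 0.000241) and Dolk, at 0.19, was not called. The other lower gene of the list was Pggt1b, at -0.29 (edgeR adjusted p = 0.0342), which limma-voom did not call (adjusted p = 0.0539).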
